A study of Mus musculus with 30 samples.

Results

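The genes described here are the transcription factor NRF2, encoded by Nfe2l2, its inhibitor Keap1, and 7 genes of glutathione synthesis, quinone and haem metabolism and the thioredoxin system: Gclm, Gclc, Hmox1, Nqo1, Txn1, Txnrd1 and Prdx1. They were taken from the expression table by symbol, and all 9 were found among its 11249 genes and passed the filter on low values. The table covers polyA RNA of 2 muscles of male mice 3 days after surgery, read as pairs of 150 bases. The gastrocnemius, a calf muscle below both injury levels, was sampled in 4 mice each after sham surgery, after spinal cord transection at the third thoracic level (T3) and after transection at the ninth (T9). The triceps brachii, an upper arm muscle whose motor neurons lie above both levels, was sampled in 6 mice each of the same 3 surgeries. All 30 libraries come from operated animals, so no unoperated muscle is among them, and neither the strain nor the age of the mice is stated in the labels used here. The series asks how the level of an acute spinal cord lesion relates to systemic muscle wasting.

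NRF2 is held in the cytoplasm by KEAP1, which passes it to a CUL3 ubiquitin ligase for destruction. Oxidants and electrophiles modify cysteines of KEAP1, NRF2 then escapes degradation, enters the nucleus with a small MAF partner and binds antioxidant response elements of its targets. These targets include the glutamate-cysteine ligase subunits, NQO1, haem oxygenase 1 and thioredoxin reductase 1. Because NRF2 is controlled largely by protein stability, its mRNA level is not a readout of its activity. In skeletal muscle, whose contraction and inactivity both alter oxidant production, the pathway is studied in exercise, disuse and denervation.

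The sequences below are shown because the antioxidant response element is the letter pattern by which NRF2 targets are recognised, and they are the upstream stretches of the 4 members in which its core was found. Each belongs to a transcription start in the RefSeq promoter table of GRCm38.p6 and is cut before that start or before the first exon base of the gene in the GENCODE annotation, whichever comes first. They are written 5′ to 3′ on the gene's own strand and carry the core match in capitals. The Nfe2l2 stretch lies at chr2:75704664-75704913 (minus strand), that of Gclm at chr3:122245307-122245556 (plus), that of Prdx1 at chr4:116685349-116685543 (plus) and that of Txnrd1 at chr10:82858956-82859178 (plus). The Txnrd1 stretch belongs to 1 of 3 starts listed for the gene and lies inside the annotated gene, downstream of its first start.
Nfe2l2: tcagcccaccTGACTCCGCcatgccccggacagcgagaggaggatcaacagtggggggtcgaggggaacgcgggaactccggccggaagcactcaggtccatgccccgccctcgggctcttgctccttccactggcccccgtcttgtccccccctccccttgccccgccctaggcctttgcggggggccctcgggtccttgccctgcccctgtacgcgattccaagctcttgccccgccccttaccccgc
Gclm: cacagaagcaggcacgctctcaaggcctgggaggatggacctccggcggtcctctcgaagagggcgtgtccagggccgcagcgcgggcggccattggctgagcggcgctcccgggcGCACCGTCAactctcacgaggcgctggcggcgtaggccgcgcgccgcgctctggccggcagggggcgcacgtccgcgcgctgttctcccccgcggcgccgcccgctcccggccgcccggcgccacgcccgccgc
Prdx1: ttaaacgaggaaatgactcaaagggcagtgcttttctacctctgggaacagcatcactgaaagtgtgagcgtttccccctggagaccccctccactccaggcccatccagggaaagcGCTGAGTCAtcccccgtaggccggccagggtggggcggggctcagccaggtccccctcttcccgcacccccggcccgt
Txnrd1: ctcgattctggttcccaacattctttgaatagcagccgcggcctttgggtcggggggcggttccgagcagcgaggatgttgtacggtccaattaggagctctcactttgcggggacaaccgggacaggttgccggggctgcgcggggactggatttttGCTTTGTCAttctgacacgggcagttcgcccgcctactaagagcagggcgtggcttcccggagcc

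The core was searched as TGACNNNGC on both strands in windows of 250 bases before to 50 bases after each RefSeq start, from which the positions below are counted. It was found in 4 of 9 windows of the members, which belong to 7 members, and in 12.4% of all 32851 windows of the table. The match began 240 bases before the RefSeq start in Nfe2l2 (TGACTCCGC, on the gene's strand), and on the opposite strand 134 bases before it in Gclm (GCACCGTCA), 133 in Prdx1 (GCTGAGTCA) and 92 in Txnrd1 (GCTTTGTCA). The AP-1 site TGANTCA was found in 7.81% of all windows and, among the members, in the window of Prdx1 alone. There a match starting 131 bases before the RefSeq start (TGAGTCA) overlaps the core, and another starting 237 bases before that start (TGACTCA) does not. A match is a description of the letters, and its absence from Keap1, Nqo1 and Txn1 says only that these windows do not hold them. Gclc and Hmox1 were not in the promoter table.

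Levels are given in CPM, the reads of a gene per 1000000 reads of its library. Depth was 13293557 to 23398801 reads in 29 libraries and 88826845 reads in triceps T3 replicate 5, and the lowest value of any member rests on 57 reads of Hmox1. Libraries differed in the median log2 CPM of all their genes, which was 3.90 ± 0.18 in sham gastrocnemius, 4.17 ± 0.10 after T3 and 4.30 ± 0.02 after T9 (SD, n = 4). In triceps it was 3.74 ± 0.28 in sham, 3.97 ± 0.13 after T3 and 3.91 ± 0.14 after T9 (SD, n = 6). The lowest medians were 3.29 and 3.55 in triceps sham replicates 3 and 4, 3.66 in gastrocnemius sham replicate 4 and 3.67 in triceps T9 replicate 1. Against sham, the median log2 change of all genes was therefore above 0, at 0.27 for T3 and 0.40 for T9 in gastrocnemius and at 0.23 for T3 and 0.17 for T9 in triceps. Members are set against these values, and each was also tested after centring every library on its median. The 6 muscle fibre markers summed to between 77889 and 146581 CPM in every library, as the muscle labels require. Triceps sham replicate 4 stood apart, with 9 macrophage markers summing to 1075 CPM against 19.8 to 46.1 in the other sham triceps libraries. In whole muscle, a change in cell numbers and a change in RNA per cell cannot be told apart. T3 and T9 share their sham libraries within a muscle, so the 2 comparisons are not independent of each other.

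In gastrocnemius, all 9 genes rose after T3 transection and 8 of 9 after T9 (limma, adjusted p under 0.05). Of all genes tested, 27.1% were called higher after T3 and 37.6% after T9. The median log2 change of the members was 0.84 after T3 and 1.13 after T9, against 0.27 and 0.40 over all genes. With each library centred on its median, 8 members rose after T3 and 7 after T9, where 14.6% and 11.1% of all genes did. All 4 injured libraries exceeded every sham library for 8 of the 9 genes after T3 and for the same number after T9, Prdx1 being the exception in both. That pattern held for 23.9% and 34.8% of all genes.

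**Figure D1:**
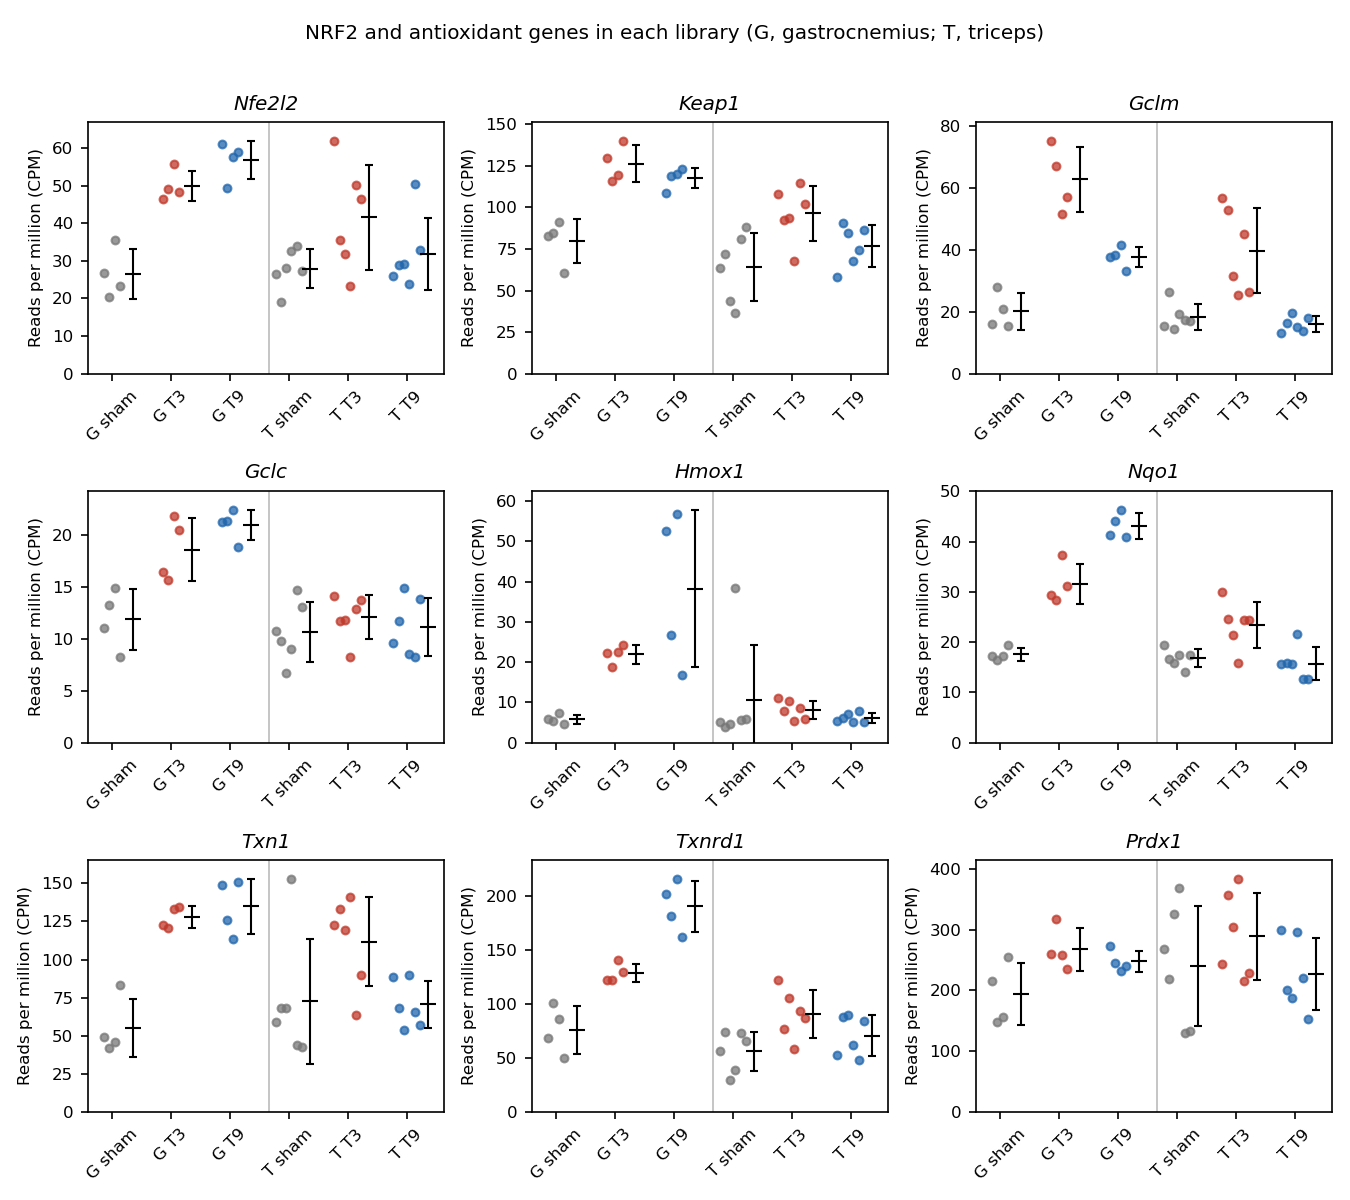
CPM of the 9 genes in each of the 30 libraries, 1 point per library, with group means and SD as black bars beside the points (G, gastrocnemius, n = 4 a group; T, triceps, n = 6 a group; sham grey, T3 red, T9 blue). In gastrocnemius the injured libraries sit above sham for every gene but Prdx1, while Hmox1 in sham triceps has a single point at 38.4 CPM, whose SD bar would reach below 0 and is cut at the axis.

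Nfe2l2 itself (chromosome 2, 75675513 to 75704641, minus strand, GRCm38) stood at 26.9, 20.3, 35.4 and 23.2 CPM in the 4 sham gastrocnemius libraries. It stood at 46.5, 49.1, 55.6 and 48.3 CPM after T3 and at 61.0, 49.4, 57.7 and 58.9 CPM after T9. Every injured library lay above every sham library, and the T3 and T9 libraries overlapped. The rise was 0.94 ± 0.16 (log2 ± SE) after T3 (limma adjusted p = 0.001) and 1.13 ± 0.16 after T9 (0.00033). The T3 value minus the T9 value was -0.19 ± 0.16 and did not pass (0.66). With the library median as a covariate the T9 rise was 0.89 and no longer called (0.05).

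Keap1 (chromosome 9, 21229730 to 21239361, minus strand), the adaptor that targets NRF2 for degradation, rose as well. Its sham libraries held 83.1, 84.9, 91.0 and 60.49 CPM, its T3 libraries 130, 116, 120 and 140 CPM and its T9 libraries 109, 119, 120 and 123 CPM. The groups of injured mice lay wholly above sham and overlapped with each other. The change was 0.68 ± 0.14 after T3 (limma adjusted p = 0.0031) and 0.57 ± 0.14 after T9 (0.0071). After centring it was 0.40 (0.019) and 0.17 (0.27), so that the T9 call rests on the deposited scaling. With the library median as a covariate it was 0.38 (0.11) and 0.14 (0.67). An antisense transcript, Gm16754, shares 510 exon bases with Keap1 in the annotation, and no source used here states whether the authors' counting used strand.

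Glutathione synthesis starts with glutamate-cysteine ligase, whose modifier subunit is encoded by Gclm and whose catalytic subunit is encoded by Gclc. Gclm (chromosome 3, 122245557 to 122270732, plus strand) was at 16.1, 28.1, 20.9 and 15.3 CPM in sham gastrocnemius. After T3 it was at 75.2, 67.1, 51.5 and 56.9 CPM, and after T9 at 37.6, 38.3, 41.4 and 33.3 CPM. The 3 groups did not overlap, with T3 highest and sham lowest. Gclm was 3.18-fold sham after T3 (log2 1.67 ± 0.19, limma adjusted p = 5.1e-05) and 1.93-fold after T9 (0.95 ± 0.19, 0.0026). The T9 rise was 0.63 with the library median as a covariate (adjusted p = 0.21). Exon bases of Gclm are shared with a pseudogene on the same strand, Gm6061 (244 bases), and with Gm17494 on the opposite strand (296 bases), neither of which is listed in the table.

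Gclc (chromosome 9, 77754535 to 77794485, plus strand) had 11.1, 13.3, 14.97 and 8.23 CPM in sham gastrocnemius, 16.5, 15.7, 21.9 and 20.5 CPM after T3 and 21.3, 21.4, 22.4 and 18.9 CPM after T9. Each injured library was above each sham library. Gclc rose by 0.67 ± 0.19 after T3 (limma adjusted p = 0.016) and by 0.85 ± 0.19 after T9 (0.004). It was 0.11 (0.65) after T3 and 0.05 (0.9) after T9 when the library median was a covariate. Leaving out T3 replicate 3 gave an adjusted p of 0.052 for T3, and fitting sham and T3 alone gave 0.056.

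Hmox1 (chromosome 8, 75093621 to 75100589, plus strand), the inducible haem oxygenase that degrades haem to biliverdin, iron and carbon monoxide, had the largest log2 changes among the 9 genes in gastrocnemius. Sham libraries held 5.80, 5.30, 7.39 and 4.69 CPM and T3 libraries 22.2, 18.8, 22.4 and 24.3 CPM. T9 libraries held 52.7, 26.8, 56.9 and 16.7 CPM, a wider spread that reached on both sides of the T3 range. No injured library came near sham. The change was 3.81-fold after T3 (log2 1.93 ± 0.32, limma adjusted p = 0.00062) and 5.94-fold after T9 (2.57 ± 0.32, 0.00011).

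Macrophages also express Hmox1, and their markers were compared beside it. The 9 macrophage markers in the table, of 11 listed (Adgre1 and Itgam were not in it), summed to 19.6 to 65.9 CPM in sham gastrocnemius, 44.9 to 56.0 after T3 and 43.5 to 64.7 after T9, so the groups overlapped. Within that list Cd68, a lysosomal protein of macrophages, ranged from 0.452 to 2.34 CPM in sham. It ranged from 4.21 to 20.3 CPM after T3 and from 7.53 to 11.3 CPM after T9. The sum of all 9 markers, Cd68 included, did not separate in this way. Its medians were 52.4 CPM in sham, 48.5 CPM after T3 and 59.2 CPM after T9. Cd68 therefore does not stand for the list, whose other markers are not given separately here. None of 3 neutrophil markers was in the table. Their part in the Hmox1 values was not tested.

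**Figure D2:**
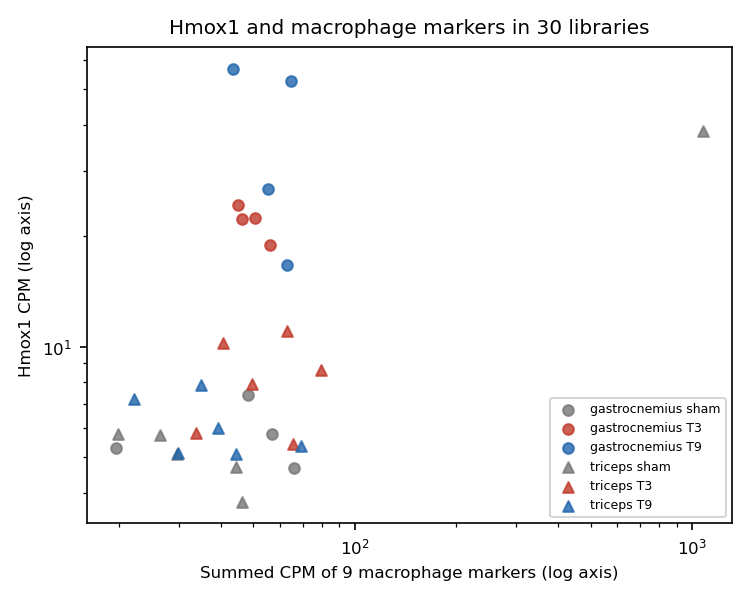
Hmox1 CPM against the summed CPM of 9 macrophage markers in the 30 libraries, both axes logarithmic, 1 point per library (circles gastrocnemius, triangles triceps; sham grey, T3 red, T9 blue). Injured gastrocnemius libraries lie at 16.7 to 56.9 CPM of Hmox1 with marker sums that overlap sham, and triceps sham replicate 4 lies alone at 1075 CPM of markers and 38.4 CPM of Hmox1.

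Nqo1 (chromosome 8, 107388225 to 107403206, minus strand), encodes a quinone reductase whose mRNA is widely used as a readout of NRF2. Its sham gastrocnemius libraries held 17.2, 16.4, 17.2 and 19.5 CPM. They were followed by 29.3, 28.3, 37.3 and 31.2 CPM after T3 and by 41.2, 44.1, 46.3 and 41.0 CPM after T9. The 3 groups did not overlap, with T9 highest. The rise was 0.84 ± 0.13 after T3 (limma adjusted p = 0.00042) and 1.30 ± 0.13 after T9 (2.5e-05), and neither call was lost under any alternative tried.

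Thioredoxin, encoded by Txn1 (chromosome 4, 57943373 to 57956411, minus strand), reduces protein disulfides. Txn1 was at 49.2, 41.8, 45.7 and 83.0 CPM in sham gastrocnemius, at 123, 120, 133 and 135 CPM after T3 and at 149, 126, 114 and 151 CPM after T9. Sham replicate 4 was the high sham library and still lay below all injured ones. The change was 1.27 ± 0.19 after T3 (limma adjusted p = 0.00034) and 1.34 ± 0.19 after T9 (0.00029), and 1.49 and 1.56 without sham replicate 4. A processed pseudogene of Txn1 is annotated elsewhere in the genome, and no source used here states how reads that match both were counted.

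Txnrd1 (chromosome 10, 82833951 to 82897712, plus strand) encodes the cytosolic reductase that recycles thioredoxin with NADPH. Sham gastrocnemius libraries had 68.2, 101, 86.2 and 49.6 CPM, T3 libraries 122, 122, 140 and 130 CPM and T9 libraries 202, 182, 216 and 162 CPM. The 3 groups followed each other without overlap. The rise was 0.80 ± 0.19 after T3 (limma adjusted p = 0.0064) and 1.36 ± 0.19 after T9 (0.00025). With the library median as a covariate it was 0.28 (0.31) and 0.60 (0.11).

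Prdx1 (chromosome 4, 116685544 to 116700822, plus strand), a peroxiredoxin that removes peroxides with electrons from thioredoxin, had the smallest differences among the 9 genes in gastrocnemius. Its values were 216, 149, 157 and 256 CPM in sham gastrocnemius, 260, 318, 258 and 235 CPM after T3 and 273, 246, 232 and 240 CPM after T9. Sham replicate 4 overlapped both injured groups. Prdx1 rose after T3 by 0.49 ± 0.17 (limma adjusted p = 0.042), while the T9 difference of 0.38 ± 0.17 did not pass (0.085). Of the 12 fits that left out 1 library, only the one without sham replicate 4 kept the T3 call, at 0.64 (0.0047), and the same fit called T9 as well, at 0.53 (0.012). After centring, the differences were 0.22 (0.49) and -0.01 (0.97), whereas with the library median as a covariate they were 0.96 (0.0022) and 1.06 (0.0098), both called.

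**Figure D3:**
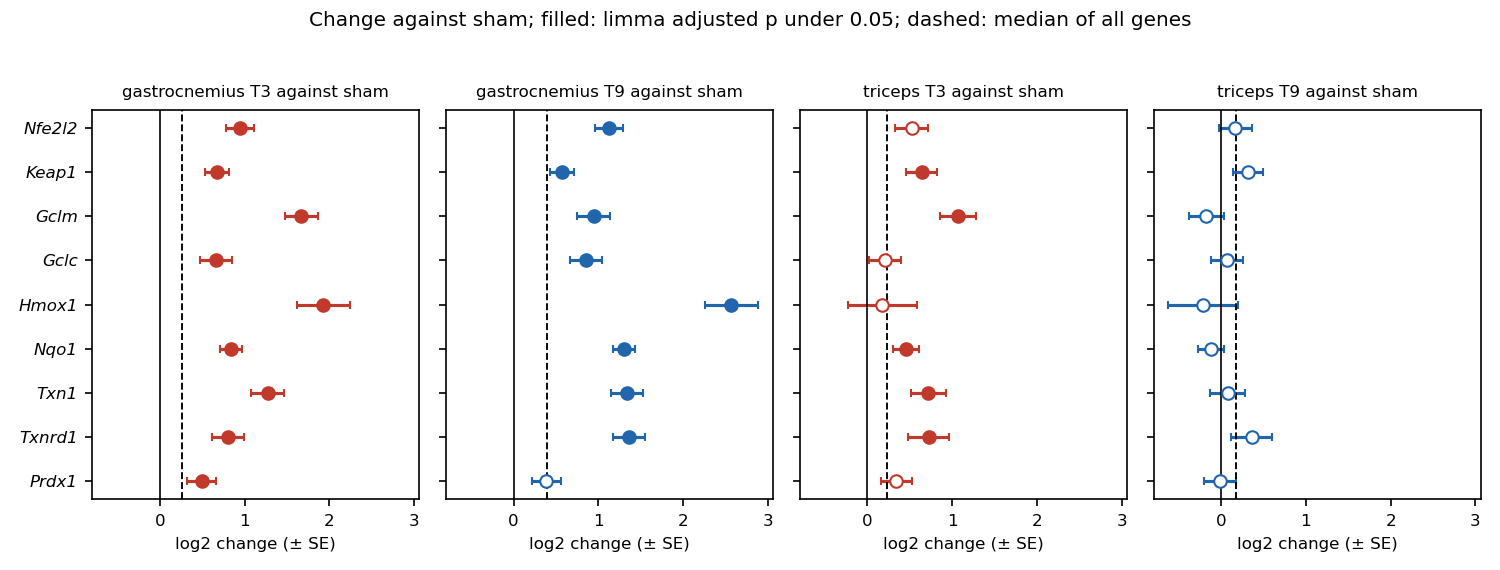
Log2 change against sham (x axis, ± SE) of the 9 genes in gastrocnemius (n = 4 a group) and triceps (n = 6 a group) after T3 and T9. Filled points have a limma adjusted p under 0.05, and the dashed line is the median of all genes (0.27, 0.40, 0.23 and 0.17 from left to right). Filled points number 9 and 8 in gastrocnemius, 5 in triceps after T3 and 0 in triceps after T9.

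The direct comparison of the lesion levels in gastrocnemius called none of the 9 genes (limma, adjusted p under 0.05), in a comparison in which 1.63% of all genes were called. That share is 183 genes, and it ranged from 11 (without T9 replicate 4) to 563 (without sham replicate 4) when 1 library was left out. At an unadjusted p under 0.05, 1708 genes stood out, among them Gclm (0.72 ± 0.19 higher after T3, adjusted p = 0.08), Nqo1 (-0.46 ± 0.13, that is higher after T9, 0.1) and Txnrd1 (-0.56 ± 0.19, 0.17). For these 3 the T3 and T9 libraries did not overlap, a pattern shared by 18.2% of all genes. Fitted on the 8 injured libraries alone, all 3 were called (9.43% of all genes), with adjusted p of 0.0063 for Gclm, 0.025 for Nqo1 and 0.008 for Txnrd1. They were also called when sham replicate 4, which enters only the estimate of the spread, was left out (0.026, 0.037 and 0.028, with 5.01% of all genes called). Without sham replicate 2, Gclm passed as well (0.034). Gclm alone was called after centring, where 1.53% of all genes were called higher. The T3 to T9 order thus ran one way in Gclm and the opposite way in Nqo1 and Txnrd1, with calls that depend on which libraries estimate the spread.

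In triceps, 5 of the 9 genes rose after T3 (Keap1, Gclm, Nqo1, Txn1 and Txnrd1), where 19% of all genes were called higher (limma, adjusted p under 0.05). None was called after T9, where 0.00889% of all genes were called, a single predicted gene, Gm5532, named here because it was the count itself. At an unadjusted p under 0.05, 1185 genes stood out after T9. After T3 the members' median log2 change was 0.52 against 0.23 over all genes, and after T9 it was 0.07 against 0.17. After centring, Keap1 and Gclm remained called after T3, where 10.1% of all genes were called higher. Libraries carrying the label number 60 (4 of 6 a group) called Gclm alone (adjusted p = 0.027, with 11.1% of all genes called), and those carrying 57 (2 of 6) called none of the 9 (6.08% of all genes), so most triceps calls rest on both sets together.

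Gclm was the clearest of the triceps changes. Its triceps libraries had a lowest, median and highest value of 14.3, 17.2 and 26.4 CPM in sham, 25.3, 38.3 and 56.7 CPM after T3 and 13.2, 15.8 and 19.7 CPM after T9. The T3 libraries lay above all T9 libraries and all but 2 of them above all sham libraries. The rise against sham was 1.07 ± 0.21 (limma adjusted p = 0.0016), held in all 18 fits that left out 1 library (0.00058 to 0.006), and had an adjusted p of 0.027 in the libraries with number 60 and of 0.074 in those with number 57. After T9 the difference from sham was -0.17 ± 0.21 (0.69).

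Keap1 in triceps ran from 36.7 through a median of 67.5 to 87.9 CPM in sham, from 68.0 through 97.7 to 115 CPM after T3 and from 58.1 through 79.5 to 90.4 CPM after T9. Of the 6 T3 libraries, 5 lay above every sham library. Its rise was 0.64 ± 0.18 (limma adjusted p = 0.016) after T3 and 0.26 (0.1) with the library median as a covariate, the 2 lowest values being those of sham replicates 3 and 4. Within the libraries of number 60 it was 0.78 (0.051) and within those of 57 0.36 (0.28).

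Txn1 and Txnrd1 both rose in triceps after T3. Txn1 went from a lowest, median and highest value of 42.8, 63.7 and 153 CPM in sham to 63.8, 121 and 141 CPM, a change of 0.72 ± 0.21 (limma adjusted p = 0.019) that was 0.48 (0.19) after centring and 0.93 (0.00051) without sham replicate 4, the library at 153 CPM. Txnrd1 went from 29.9, 60.9 and 73.5 CPM to 58.0, 90.2 and 122 CPM, a change of 0.72 ± 0.24 (0.038). The Txnrd1 call was lost in 8 of 18 fits that left out 1 library (lost without sham replicate 1, 3 or 4 or T3 replicate 1, 2, 3, 5 or 6, adjusted p of up to 0.098), and was 0.16 (0.39) with the library median as a covariate. After T9 the ranges were 53.9 to 89.9 CPM for Txn1 and 48.0 to 90.2 CPM for Txnrd1, both overlapping sham.

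Nqo1 in triceps had a lowest, median and highest value of 14.04, 17.0 and 19.5 CPM in sham, 15.8, 24.3 and 29.9 CPM after T3 and 12.6, 15.7 and 21.7 CPM after T9. All T3 libraries but 1 lay above every sham library. The rise of 0.46 ± 0.15 (limma adjusted p = 0.04) was lost in 8 of 18 fits that left out 1 library (lost without sham replicate 2, 3, 4 or 5 or T3 replicate 1, 2, 5 or 6, adjusted p of up to 0.1) and was 0.22 (0.32) after centring.

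The 4 other genes did not pass in triceps after T3. Nfe2l2 ranged from 19.1 to 34.0 CPM in sham, 23.3 to 61.9 after T3 and 23.8 to 50.3 after T9, with a T3 difference of 0.52 ± 0.20 (limma adjusted p = 0.063) that passed without sham replicate 4 (0.60, 0.044) or without T3 replicate 4 (0.65, 0.017). Gclc ranged from 6.72 to 14.8 CPM in sham, 8.31 to 14.2 after T3 and 8.29 to 14.96 after T9, and its T3 difference was 0.21 ± 0.19 (0.43). Prdx1 ranged from 129 to 368 CPM in sham, 215 to 384 after T3 and 153 to 300.1 after T9, with a T3 difference of 0.34 ± 0.19 (0.19). With the library median as a covariate, the Prdx1 difference was 0.70 (0.0013).

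Hmox1 in triceps rested on a single sham library. Sham ran from 3.79 through a median of 5.43 to 38.4 CPM, T3 from 5.43 through 8.27 to 11.001 CPM and T9 from 5.11 through 5.70 to 7.86 CPM. Sham replicate 4 held the 38.4 CPM, while the other 5 sham libraries held 3.79 to 5.79 CPM. The T3 difference was 0.18 ± 0.41 (limma adjusted p = 0.77) with that library and 0.67 ± 0.20 (0.028) without it. Its fibroblast markers summed to 935 CPM, and Lyz2, which encodes a lysozyme of macrophages and neutrophils, was at 705 CPM. The part of those cells in its Hmox1 value was not tested.

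Between the lesion levels in triceps, Gclm and Nqo1 were higher after T3 than after T9, by 1.24 ± 0.21 (limma adjusted p = 0.0015) and 0.57 ± 0.15 (0.028), where 4.95% of all genes were called higher and 7.6% in either direction. The Gclm libraries did not overlap, as was the case in the same direction for 3.3% of all genes. Nqo1 lost its call in 8 of 18 fits that left out 1 library (without T3 replicate 1, 2, 5 or 6 or T9 replicate 1, 3, 5 or 6, adjusted p of up to 0.081) and in the fit with a replicate block (0.06). Txn1 stood at 0.64 ± 0.21 (0.068), and at an adjusted p of 0.009 without sham replicate 4. The members' median was 0.36 against 0.05 over all genes.

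The muscles were compared in the 12 mice whose gastrocnemius and triceps libraries carry the same label number, with the mouse as a block. The T9 change was larger in gastrocnemius than in triceps for 5 of the 9 genes: Nfe2l2, Gclm, Hmox1, Nqo1 and Txn1 (limma, adjusted p under 0.05), where 3.76% of all genes differed in that direction. The same 5 were called after centring, with 3.24% of all genes. The difference of the changes was 1.09 ± 0.30 for Nfe2l2 (adjusted p = 0.047), 1.14 ± 0.22 for Gclm (0.0092) and 2.96 ± 0.67 for Hmox1 (0.019). It was 1.32 ± 0.26 for Nqo1 (0.009) and 1.47 ± 0.17 for Txn1 (0.00036). Gclm, Nqo1 and Txn1 kept their calls when any 1 mouse was left out. Nfe2l2 lost its call in 9 of 12 such fits (adjusted p of up to 0.13), kept only without the sham mouse of triceps replicate 3 or the T3 mouse of triceps replicate 1 or 4. Hmox1 lost it without the T9 mouse of triceps replicate 1 (0.057) or 3 (0.064), and its value was 2.09 without the sham mouse that gave triceps sham replicate 4. For Gclc (0.56), Keap1 (0.06), Txnrd1 (0.76) and Prdx1 (0.65) the difference did not pass, although Txnrd1 did without the sham mouse of triceps replicate 3 (1.05, 0.025). Prdx1 (0.80, limma adjusted p = 0.00043) and Txnrd1 (0.49, 0.017) were also called with the library median as a covariate.

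For T3 the same difference between muscles passed for none of the 9 genes, in a comparison that called 1.24% of all genes and in which 1332 genes stood out at an unadjusted p under 0.05. Its largest values were 1.82 ± 0.67 for Hmox1 (limma adjusted p = 0.26), 0.59 ± 0.17 for Txn1 (0.11) and 0.57 ± 0.22 for Gclm (0.3). The Hmox1 value was 0.95 without the sham mouse that gave triceps sham replicate 4. With the library median as a covariate these 3 were called, at 0.034, 0.014 and 0.01, with 11.5% of all genes. Whether the T9 difference between muscles exceeds the T3 one was not tested.

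In sham mice, Keap1 and Txnrd1 were higher and Txn1 and Prdx1 lower in gastrocnemius than in triceps (limma, adjusted p under 0.05), in a comparison that called 38.9% of all genes. The differences were 0.60 ± 0.15 for Keap1 (adjusted p = 0.017), 0.65 ± 0.23 for Txnrd1 (0.04), -0.61 ± 0.12 for Txn1 (0.016) and -0.61 ± 0.15 for Prdx1 (0.017). Without the sham mouse of triceps replicate 3, the call held for Txn1 alone, the other 3 (Keap1, Txnrd1 and Prdx1) standing at 0.092, 0.25 and 0.091. Txnrd1 lost its call in 6 of 12 such fits, those without the sham mouse of triceps replicate 2 or 3, the T3 mouse of replicate 2 or 3 or the T9 mouse of replicate 3 or 4, and it had an adjusted p of 0.063 after centring. Without that mouse the count over all genes fell from 4374 to 96. Its 2 libraries deviated from their group means in opposite directions (r across genes of -0.753), unlike those of the other 11 mice. Its triceps library (sham replicate 3) deviated like gastrocnemius sham replicate 4, the library of another mouse (r = 0.862). Whether libraries were exchanged was not tested, and each comparison of the muscles rests on this pairing.

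Within groups, several members moved with the library median. In triceps sham replicates 3 and 4, the 2 sham triceps libraries of lowest median, Keap1 (43.7 and 36.7 CPM) and Txnrd1 (29.9 and 38.7 CPM) were the lowest of their group. In gastrocnemius sham replicate 4 Keap1 was at 60.49, Gclc at 8.23 and Txnrd1 at 49.6 CPM, each the lowest of its group, while Txn1 at 83.0 and Prdx1 at 256 CPM were the highest. Across the 30 libraries, after subtracting group means, Pearson r of log2 CPM was 0.86 between Gclc and Txnrd1, 0.80 between Keap1 and Txnrd1 and 0.82 between Txn1 and Prdx1. It was -0.90 between Keap1 and Prdx1 and -0.81 between Keap1 and Txn1. These values describe 30 libraries of which 24 share mice in pairs, and all genes of a library share its total. For Nqo1 with the other 8 members it lay between 0.05 and 0.20. The part of the library median in the group differences was not tested beyond the covariate values given above.

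**Figure D4:**
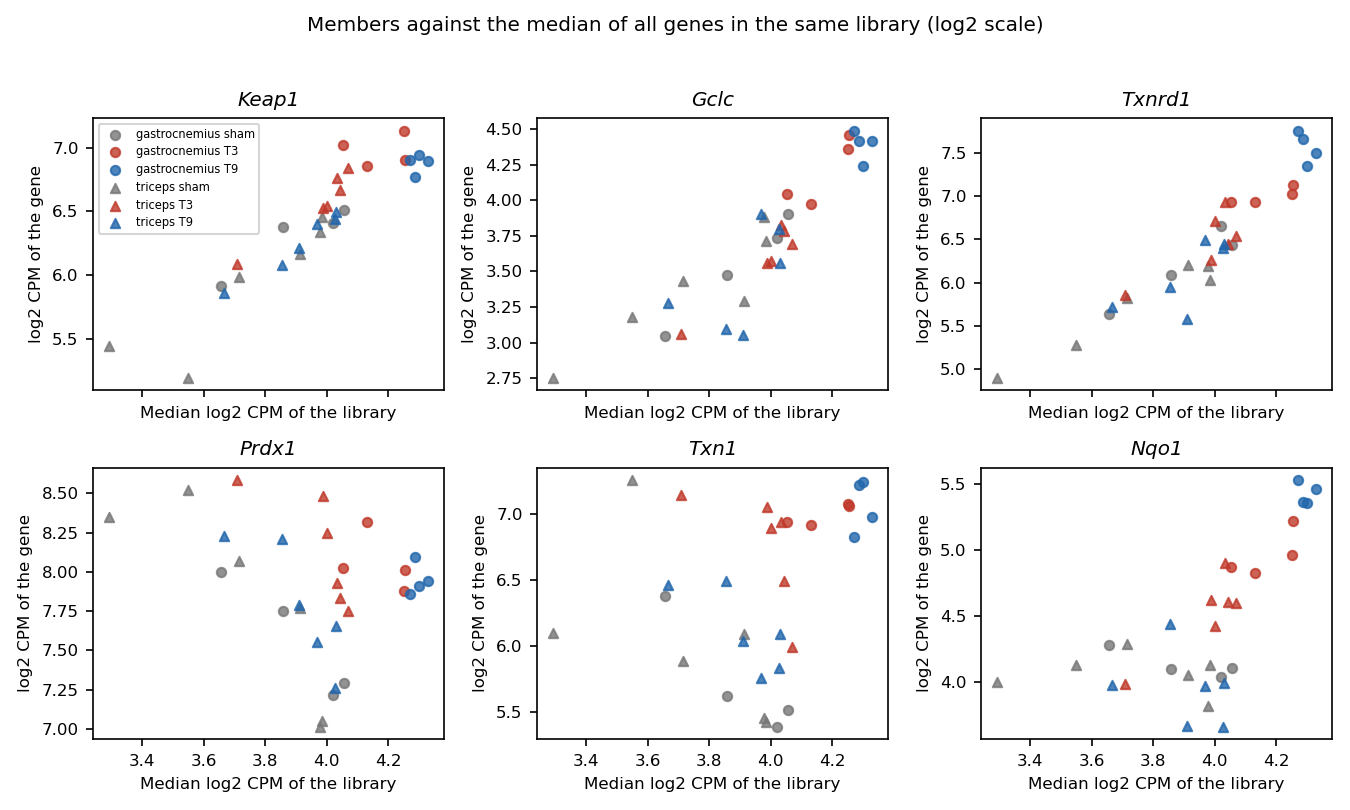
Log2 CPM of 6 of the genes (y axes) against the median log2 CPM of all genes in the same library (x axes), 1 point per library (circles gastrocnemius, triangles triceps; sham grey, T3 red, T9 blue). Keap1, Gclc and Txnrd1 climb with the median from 3.29 to 4.33, Prdx1 is highest at low medians, and Nqo1 is high in injured gastrocnemius without such a slope within groups.

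Set out by level, the order of the groups differed between genes. Mean Nqo1 was 15.7 ± 3.3 CPM in triceps T9, 16.8 ± 1.8 in triceps sham, 17.5 ± 1.3 in gastrocnemius sham, 23.4 ± 4.6 in triceps T3, 31.5 ± 4.0 in gastrocnemius T3 and 43.1 ± 2.5 in gastrocnemius T9. Neighbours among the 3 lowest differed by less than the larger SD, and each further step was larger than it. Mean Gclm was 16.04 ± 2.5 CPM in triceps T9, 18.3 ± 4.3 in triceps sham, 20.1 ± 5.9 in gastrocnemius sham, 37.6 ± 3.4 in gastrocnemius T9, 39.6 ± 13.7 in triceps T3 and 62.7 ± 10.6 in gastrocnemius T3. Neighbours among its 3 lowest groups lay within the larger SD of each other, as did gastrocnemius T9 and triceps T3, while the steps to gastrocnemius T9 and to gastrocnemius T3 were larger. For Prdx1 every pair of neighbours lay within the larger SD, from 194 ± 51 CPM in gastrocnemius sham to 289 ± 71 in triceps T3. Per kilobase of exon, the sham gastrocnemius level was highest for Prdx1 (63.8 CPM per kilobase) and Txn1 (52.3), followed by Keap1 (17.0), Nqo1 (11.3), Txnrd1 (10.8), Nfe2l2 (6.97), Hmox1 (3.31), Gclm (3.19) and Gclc (3.16).

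The genes most like 8 of the members over the 30 libraries were taken as the 3 with the highest Pearson r of log2 CPM. Gclm was most like Nop14 (r = 0.95), Dpp3 (0.94) and Usp14 (0.94), of which Dpp3 encodes a peptidase that binds KEAP1. Nqo1 was most like Xbp1 (0.91), Cebpz (0.91) and Atp13a3 (0.91), and Hmox1 was most like Ywhab (0.89), Abi1 (0.87) and the myogenic factor Myog (0.86). For Nfe2l2 the 3 were Sik1 (0.88), Ddx18 (0.88) and Cdkn1a (0.86), the last a cell cycle inhibitor. Txn1 was most like Hprt (0.95), Bcl10 (0.92) and Dnajc2 (0.91), and Prdx1 was most like Eif2s2, Psma3 and Eif3m (0.95 each). Keap1 was closest to Zfp598, Gorasp1 and Zkscan17 (0.98 each), and Txnrd1 to Cyld (0.96), Musk (0.95) and Nckap1 (0.95). All 30 libraries enter these values, so that they hold group differences and library medians together.

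Around the members, 100 other genes of the pathway were listed in 7 groups, of which 94 were in the table. In gastrocnemius 31 of the 94 rose and 6 fell after T3, and 33 rose and 8 fell after T9 (limma, adjusted p under 0.05). The background is 33.7% and 43.2% of all genes called in either direction. After centring the split was 20 higher and 10 lower after T3 and 15 higher and 17 lower after T9, where 14.6% and 14.5% of all genes were called higher and lower after T3 and 11.1% and 12.4% after T9. The list median of 0.26 after T3 was close to the 0.27 of all genes, and that of 0.27 after T9 was below their 0.40.

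Of 14 NRF2 partners in the table, 7 rose after T3 and 8 after T9 in gastrocnemius and none fell. Among them were Dpp3 (1.69 after T3, limma adjusted p = 7.7e-05, and 1.14 after T9, 0.0014), Sqstm1, whose product p62 sequesters KEAP1 (1.55, 0.00034, and 1.18, 0.0022), and the competing repressor Bach1 (1.09, 0.00062, and 0.75, 0.006). The small MAF gene Mafk also rose (1.23, 0.00035, and 0.71, 0.0094). Of all genes tested, 27.1% were called higher after T3 and 37.6% after T9. After centring, 5 of the partners rose and 0 fell after T3, and 3 rose and 1 fell after T9.

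Thioredoxin and peroxiredoxin genes gave 7 higher and 2 lower of 23 after T3 and 8 higher and 3 lower after T9. The share of all genes called higher was 27.1% after T3 and 37.6% after T9, with 33.7% and 43.2% called in either direction. Srxn1, which encodes the sulfiredoxin that repairs overoxidised peroxiredoxins, rose by 1.70 after T3 (limma adjusted p = 0.00018) and 1.96 after T9 (9.1e-05). Nxn (nucleoredoxin) rose by 1.26 (3.6e-05) and 0.89 (0.00048), Txnl1 by 1.15 (3.6e-05) and 0.78 (0.00065), and Prdx6 by 0.77 (0.00076) and 0.99 (0.00016). The genes that fell, named for their low count after their values were seen, were the methionine sulfoxide reductases Msrb1 and Msrb3 after T3 and Msrb1, Glrx and Prdx5 after T9. Msrb1 fell by 0.52 (0.022) and 0.90 (0.0011). After centring, the counts of this list were 6 higher and 2 lower after T3 and 4 higher and 5 lower after T9.

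Among all genes, 27.1% were called higher after T3 and 37.6% after T9, the background for the lists that follow. Of 15 glutathione genes, 5 rose and 1 (Ggct) fell after T3 and 4 rose after T9. The smallest adjusted p was that of the glutathione reductase Gsr (1.52, limma adjusted p = 0.0003, and 1.33, 0.00082). Of 11 genes of NADPH supply, 2 rose after T3, while 4 rose and 1 fell after T9. Pgd of the pentose phosphate pathway rose by 2.16 (1.4e-05) and 2.20 (1.3e-05), and the mitochondrial Idh2 fell by 1.27 after T9 (0.001). Of 6 superoxide and peroxide genes, 3 rose and 1 fell after T3 and 2 rose and 1 fell after T9. Catalase (Cat) rose by 1.497 (0.0002) and 1.15 (0.0013), the cytosolic Sod1 by 0.94 (0.0013) and 0.51 (0.029), and the mitochondrial Sod2 fell by 0.32 (0.037) and 0.49 (0.0043). After centring, glutathione genes gave 3 higher and 2 lower after T3 and 2 higher and 2 lower after T9. Genes of NADPH supply then gave 1 higher and 2 lower after either level. Superoxide and peroxide genes gave 2 higher and 1 lower after T3 and 1 higher and 1 lower after T9.

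Haem and iron genes gave 2 higher and 2 lower of 11 after T3 and 2 higher and 1 lower after T9. Beside this list and the transferases stand 27.1% of all genes called higher after T3 and 37.6% after T9. The haem transporter Slc48a1 rose by 0.73 (limma adjusted p = 0.00096) and 0.59 (0.0034), and Blvra, which encodes a biliverdin reductase, fell by 0.56 after T3 (0.013). The ferritin light chain Ftl1 rose by 0.78 (limma adjusted p = 0.0048) and 0.91 (0.0019), and the transferrin receptor Tfrc fell by 1.57 (0.0015) and 1.18 (0.007). After centring, haem and iron genes gave 1 higher and 3 lower after T3 and 0 higher and 3 lower after T9. The T9 rises of Slc48a1 and Ftl1 were thus not called after centring. Of 14 glutathione transferases, 5 rose after T3, and 5 rose and 2 (Mgst1 and Mgst3) fell after T9. Gstm1 rose by 1.04 (0.0014) and 1.48 (0.00015) and Gstm2 by 1.47 (0.0001) and 1.53 (0.0001), although reads of these close paralogs may have been shared or lost in counting. After centring, 2 transferases rose and 0 fell after T3, and 4 rose and 3 fell after T9.

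**Figure D5:**
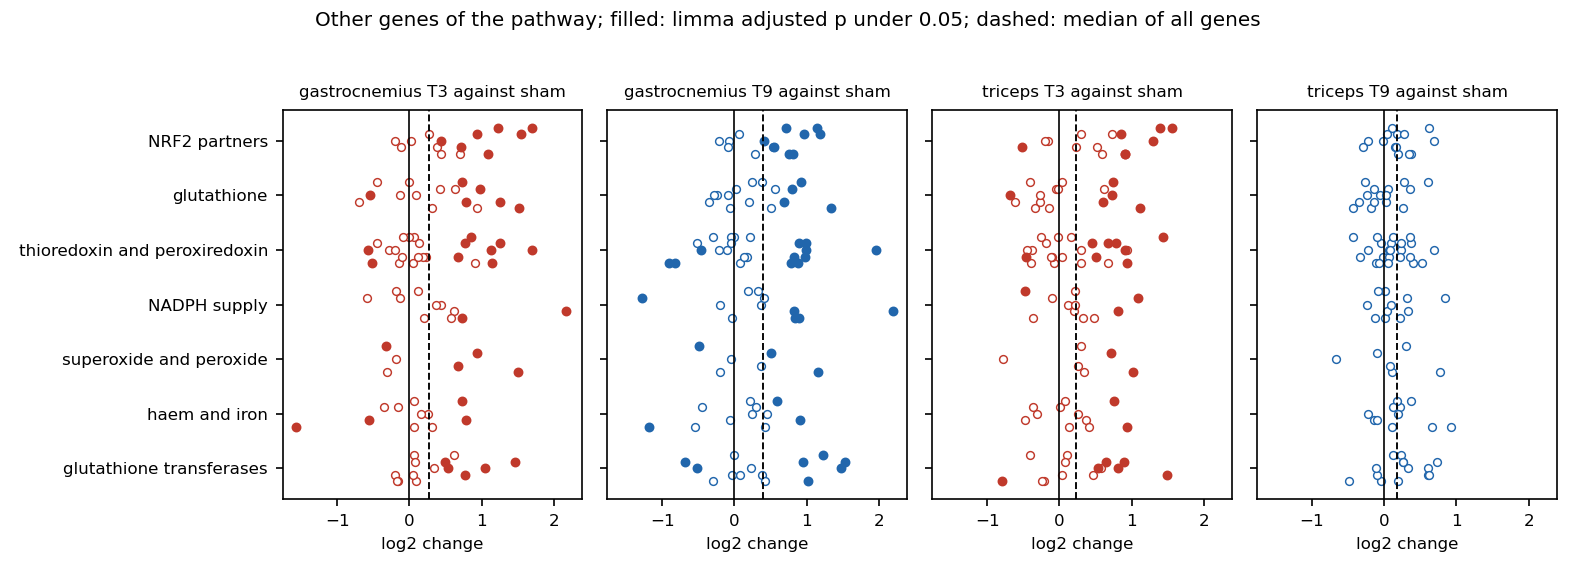
Log2 change against sham (x axis) of the 94 other pathway genes, 1 point per gene, in 7 lists (y axis) for gastrocnemius (n = 4 a group) and triceps (n = 6 a group) after T3 and T9. Filled points have a limma adjusted p under 0.05 and the dashed line is the median of all genes. The filled points number 37 and 41 in gastrocnemius, 33 in triceps after T3 and 0 in triceps after T9.

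In triceps, 28 of the 94 rose and 5 fell after T3, where 23.3% of all genes were called in either direction, and none was called after T9. The T3 changes included Mafk (1.57, limma adjusted p = 0.00074), Dpp3 (1.40, 0.00025), Sesn1 (1.43, 6.3e-05), Gsr (1.11, 0.0013), Cat (1.03, 0.0014) and Prdx6 (0.68, 0.00012). Idh2 rose by 1.09 (0.0013) in triceps after T3. The 5 that fell were Me1, Park7, Ggct, Gstt2 and Glrx2, the last 2 and Park7 named for that count after their values were seen. For T9 the change differed between the muscles for 16 of the 94 genes, 11 with the larger value in gastrocnemius and 5 with the larger value in triceps, against 6.95% of all genes in either direction. Those with the larger gastrocnemius value included Pgd (1.77, limma adjusted p = 0.023), Ftl1 (1.28, 0.0054), Sqstm1 (1.07, 0.027) and Txnl1 (0.77, 0.0099). The opposite held for Idh2 (-2.48, 0.00017), Tfrc (-2.33, 0.0034) and Alas1 (-1.48, 0.0069), the last encoding the first enzyme of haem synthesis, and for Mgst3 and Sod2.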

How the data were processed

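PolyA RNA of gastrocnemius (12 libraries) and triceps brachii (18) was sequenced from a stranded kit, per the labels' protocols. The submitters' processing notes name HISAT2 2.1.0, featureCounts, Subread 1.5.1, limma and build GRCm38 as used by the authors, with no annotation release or strand setting. The deposited values are log2 CPM, computed with 0.5 added to each count. Whole reads were recovered for 100% of the values (tolerance 0.01 reads). Each library is scaled to its own total, so a shift in a few abundant genes moves all others.

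Genes at log2 0 or above in 4 or more libraries (11248 in gastrocnemius, 11249 in triceps and in both muscles) were fitted with limma 3.58.1 in R 4.3.3 (variance trend, two-sided), with Benjamini-Hochberg adjustment over all genes tested and a threshold of 0.05. The 3 groups of a muscle shared a spread. Triceps fits had a term for the label number (57 or 60, whose meaning the labels do not give). Fits between muscles used the mouse, read from the label numbers, as a block. In 11 of 12 mice both libraries deviated together (r above 0.1, mean 0.32 over the 12, against -0.11 between different mice). Deviations were taken from group means. That step alone pushes values between different mice below 0 where those within mice are above it, so -0.11 is no independent reference. Replicates are separate animals as far as the label numbers show, and each replicate pair differed by more than sampling noise (chi-square per degree of freedom of at least 9.78). The fits were also run on simulated data, drawn as independent libraries with the same dispersion for every gene. The simulation held no shift of library medians, label effect or pairing of mice, so it cannot show how the fits behave under these.

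The members and lists were chosen with earlier results of these data known. Named are the 9 members, the 3 genes most like each (mean log2 CPM of at least 1) and, per list and comparison, up to 4 genes of smallest adjusted p, plus Gm5532. Among those outside this rule were Cd68 and Lyz2 of the macrophage markers and the genes marked above as named after their values were seen. The genes most like Gclc are not reported here. Alternatives were median centring, quantile normalization, no filter, a stricter filter (log2 of at least 2), a pseudocount of 1 CPM, voom weights, other library sets, the library median as a covariate, no label term, no mouse block, a replicate block and leaving out each library or mouse. The fit on label number 57 alone was added after the data had been seen.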

Additional observations from a re-analysis of the deposited data

Results flagged for a closer look

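Of 54 sets of values, 1 for each gene and group, 3 held a library far from the others of its group, and chance alone gives about 1 such set in 20. Hmox1 in sham triceps was 38.4 CPM in replicate 4, and Txn1 in the same library was 153 CPM, both the highest of 6. In that library 9 macrophage markers summed to 1075 CPM, against 19.8 to 46.1 in the other sham triceps libraries, and 5 fibroblast markers to 935 CPM. Gclc in triceps T3 was 8.31 CPM in replicate 4, the lowest of 6, in the library with the lowest median of its group (3.71 on the log2 scale).

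The T9 change differed between gastrocnemius and triceps (limma, interaction term, adjusted p under 0.05) by 1.09 for Nfe2l2, 1.14 for Gclm, 2.96 for Hmox1, 1.32 for Nqo1 and 1.47 for Txn1, each larger in gastrocnemius. The Hmox1 difference was 2.09 without the sham mouse that gave triceps sham replicate 4.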

How the results depend on the processing

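Over all single-gene values and alternatives, no called value changed sign. Among the moves in the counts of the 9 members called were the following. With median centring, 1 was called between lesion levels in gastrocnemius and 2 in triceps after T3, and with quantile normalization 1 and 1. With the library median as a covariate, the count was 4 for gastrocnemius T9 against sham, 1 between its lesion levels, 3 for triceps T3 against sham, 4 between triceps lesion levels, 3 for the muscle difference of the T3 change and 1 for sham muscles. Under the same covariate, gastrocnemius T3 against sham lost Keap1 (limma adjusted p = 0.11), Gclc (0.65) and Txnrd1 (0.31). The muscle difference of the T9 change gained Prdx1 (0.00043) and Txnrd1 (0.017). In fits of the groups compared only, the count was 3 between gastrocnemius lesion levels and 3 for triceps T3. Of the 4 libraries of low median, only sham replicate 4 is in the gastrocnemius fit, and the count without it was 3 between gastrocnemius lesion levels. Without all 4 it was 3 for the muscle difference of the T9 change and 0 for sham muscles, and without the mouse block 3 and 0 for the latter. Without the label term triceps T3 had 2, with number 60 only 1 and with number 57 only 0, and between triceps lesion levels both gave 0.

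Leaving out 1 library or mouse gave counts of 7 to 9 for gastrocnemius T3, 8 to 9 for T9 and 0 to 3 between them, 3 to 6 for triceps T3, 0 throughout for T9 and 1 to 3 between them, and 0 throughout, 3 to 6 and 1 to 4 for the muscle differences of T3, of T9 and of sham. Over all genes, these fits called 2661 to 4765, 3384 to 5589 and 11 to 563 in gastrocnemius. In triceps they called 1865 to 3122, 0 to 7 and 539 to 1066, and the ranges for the muscle differences are given below.

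Same-numbered replicates of different groups did not all deviate together (r of -0.287 to 0.338 in gastrocnemius and -0.627 to 0.837 in triceps). In triceps, numbers 4 and 6 had r of 0.503 to 0.837 in all 3 pairs of groups, while numbers 1, 2, 3 and 5 had values on both sides of 0. Not every library correlated best with its own number, and the labels give the numbers no shared source. With the replicate block, 8, 8 and 0 members were called in the gastrocnemius comparisons (T3, T9, T3 against T9) and 4, 0 and 1 in those of triceps. The same fits called 3370, 4430 and 70 of 11248 genes tested in gastrocnemius and 2366, 0 and 688 of 11249 in triceps.

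Counts over all genes moved more. Gastrocnemius T3 against sham had 3794 genes, 2357 with its 2 groups alone and 2079 with the median covariate. T9 had 4864, 2644 once centred, 2718 once quantile normalized and 1388 with the covariate. Their comparison had 183, 1059 with its groups alone, 563 without low medians (the same fit as without sham replicate 4), 423 with the covariate, 70 with the block and 11 to 563 with 1 library left out. Triceps T3 had 2624, 2860 with the covariate, 1247 with number 60 and 684 with number 57. Triceps T9 had 1 against 0 to 15. The comparison of T3 with T9 in triceps had 855 (539 to 1066 with 1 library left out), 2212 with the covariate, 50 with number 60 and 314 with 57. The muscle difference of T3 had 140 (248 centred, 316 quantile, 39 without low medians, 1298 covariate, 75 without mouse block, 54 to 183 with 1 mouse left out), that of T9 782 (314 without low medians, 3208 covariate, 447 without mouse block, 353 to 1488 with 1 mouse left out), and sham muscles 4374 (9, 308 and 95 under the same 3, 96 to 4650 with 1 mouse left out). The cause of these shifts was not tested. Hmox1 and Gclc, at 57 reads or more and 110 or more a library, carry the largest counting error.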
